A study of Mus musculus with 12 samples.

Results

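The genes described here are 36 genes of the integrated stress response and of serine, one-carbon and amino acid supply. They were chosen by symbol from a fixed list, with no measured value in the rule, although earlier results of these data were known. All 36 were found among the 24674 genes of the deposited table. In the integrated stress response, kinases that sense amino acid lack, misfolded protein or other stress phosphorylate the translation factor eIF2, which lowers general protein synthesis while favouring translation of the transcription factor ATF4. ATF4, often paired with a C/EBP protein, activates genes for serine and asparagine synthesis, mitochondrial folate enzymes, amino acid transporters and feedback inhibitors. The serine pathway draws on 3-phosphoglycerate from glycolysis, and serine feeds glycine, nucleotide and glutathione synthesis. Because ATF4 is controlled largely at translation, its transcript is no measure of its protein.

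RNA was sequenced from basal-derived organoids, which are small cultures grown from basal epithelial cells of the prostate of wildtype C57BL/6 mice. There were 4 groups of 3 samples: Vehicle, UK5099, Butyrate and UK5099 + Butyrate. UK5099 blocks the carrier that takes pyruvate into mitochondria, and butyrate is a histone deacetylase inhibitor. The comparisons ask what each compound does alone and whether their effects add. The study's methods give the donors of primary basal cells as males of the substrain C57BL/6J aged 3 to 6 months, and the labels give no dose, time or donor for a sample, nor say whether replicates came from separate animals or cultures, so the p-values measure only the spread between these samples, which may be technical. Depth was between 33251962 and 43499025 fragments per sample. Values are TPM, transcript abundance scaled to a total of 1000000 per sample, which here were divided by a gene's whole genomic span, introns included, so levels are compared between genes only per exonic length. Each coefficient is a difference between groups in mean log2(TPM + 1) from limma, and a gene was called where the adjusted p was under 0.01 and the coefficient was above 1 or below -1. This scale understates changes of genes at a few TPM or less.

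The epithelial markers Epcam and Cdh1 were present in every group, but their summed level was 699 to 718 TPM under vehicle, 425 to 446 under UK5099, 271 to 273 under butyrate and 178 to 183 under both compounds. Markers of fibroblasts, endothelium and neuroendocrine cells were near 0 or about 1 TPM at most apart from Dcn, at a mean of 9.51 TPM with butyrate. The leukocyte marker Cd68 had means between 24.2 and 91.7 TPM across groups, whereas Ptprc, which defines leukocytes, was at or near 0. The summed level of 5 basal markers was 6531 to 6657 TPM under vehicle, 13496 to 13878 under UK5099, 6920 to 7158 under butyrate and 9983 to 10391 under both compounds. The 5 genes did not move alike: Krt5 and Trp63 had means above vehicle in every treated group, whereas Krt15 was at a mean of 3029 TPM under vehicle, 2426 under butyrate and 1932 under both, and Krt14 at 1676 under vehicle and 1391 under butyrate. The summed level of 4 luminal markers was 4609 to 4794 TPM under vehicle, 2735 to 2887 under UK5099, 2689 to 2723 under butyrate and 1693 to 1913 under both, so the luminal sum and that of Epcam and Cdh1 moved with each result against vehicle given here, and their part in them was not tested. These sums add values divided by genomic span, which weighs genes of short span more. UK5099 replicate 1 and UK5099 + Butyrate replicate 1 stood apart from their groups, with a chi-square per degree of freedom of 6.29 to 6.64 against their replicates, where the other pairs were at 1.93 to 2.65. Without both libraries, 5 rather than 6 members were called with UK5099, since the coefficient of Asns was then -0.995, and the counts for butyrate, the combination and the interaction stayed at 3, 3 and 6.

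With UK5099, most of the 36 genes were lower than in vehicle. At an adjusted p under 0.01, 26 members were lower and 5 higher, beside 24.7% and 8.24% of all genes and 39.7% and 12.7% of the 13345 genes at 1 TPM or more over the samples, to which 35 members belonged. The median coefficient of the members was -0.48, and that of genes at 1 TPM or more was -0.12. All 6 members called were lower, and they were Slc7a5, Trib3, Chac1, Mthfd2, Atf5 and Asns. Of all genes, 0.912% were called lower and 0.928% higher. Among genes at 1 TPM or more these shares were 1.54% and 1.69%. In 30 of the 36 members all UK5099 samples lay below all vehicle samples, and in 5 they lay above, beside 49.7% and 17.1% of genes at 1 TPM or more and 35.1% and 14.1% of all genes. In bulk samples of this kind, fewer cells of a type and less RNA per cell cannot be told apart. After scaling by the median of ratios, which brings the typical gene to 0, 23 members were lower and 7 higher with UK5099, beside 13.7% and 13.5% of all genes. On that scale Trib3, Chac1 and Slc7a5 were called, where 0.6% of all genes were called lower, while Mthfd2 (-0.94), Atf5 (-0.89) and Asns (-0.88) no longer passed the limit of -1.

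Butyrate lowered 26 members and raised 5 at an adjusted p under 0.01, where 35.9% and 9.7% of all genes, and 58.7% and 12.2% of genes at 1 TPM or more, were lower and higher. The members' median coefficient was -0.31, while genes at 1 TPM or more had a median of -0.30. Trib3, Chac1 and Ddit4 were the 3 members called, all lower, while 2.42% of all genes were called lower and 1.13% higher. Among genes at 1 TPM or more these shares were 4.23% and 2.02%. With the combination 26 members were lower and 7 higher, with 40.8% and 10.1% of all genes and 65.2% and 11.6% of genes at 1 TPM or more. The medians were -0.43 for the members and -0.41 for genes at 1 TPM or more. The 3 members called in it, Slc7a5, Trib3 and Nupr1, were lower, while 4.63% of all genes were called lower and 1.79% higher. Among genes at 1 TPM or more, 8.17% were called lower and 3% higher, so the members' share was close to that of such genes. The split of these 2 comparisons depended on scaling: after the median of ratios, 17 members were lower and 11 higher with butyrate, beside 20.3% and 18.5% of all genes, and 15 were lower and 14 higher with the combination, beside 22.5% and 21.7%. Butyrate's call of Ddit4 was lost on that scale, at -0.79. The 3 members called with the combination there were Ddit3, Cebpb and Slc7a1, all higher, where 2.93% of all genes were called higher and 1.66% lower. On the deposited TPM, all butyrate samples lay below all vehicle samples in 27 members and above them in 8. Among genes at 1 TPM or more this held for 64.6% and 15.4%, and among all genes for 44.2% and 15.9%. The combination gave 27 and 8 members too, beside 69.7% and 13.9% of genes at 1 TPM or more and 49.1% and 15.6% of all genes.

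**Figure D1:**
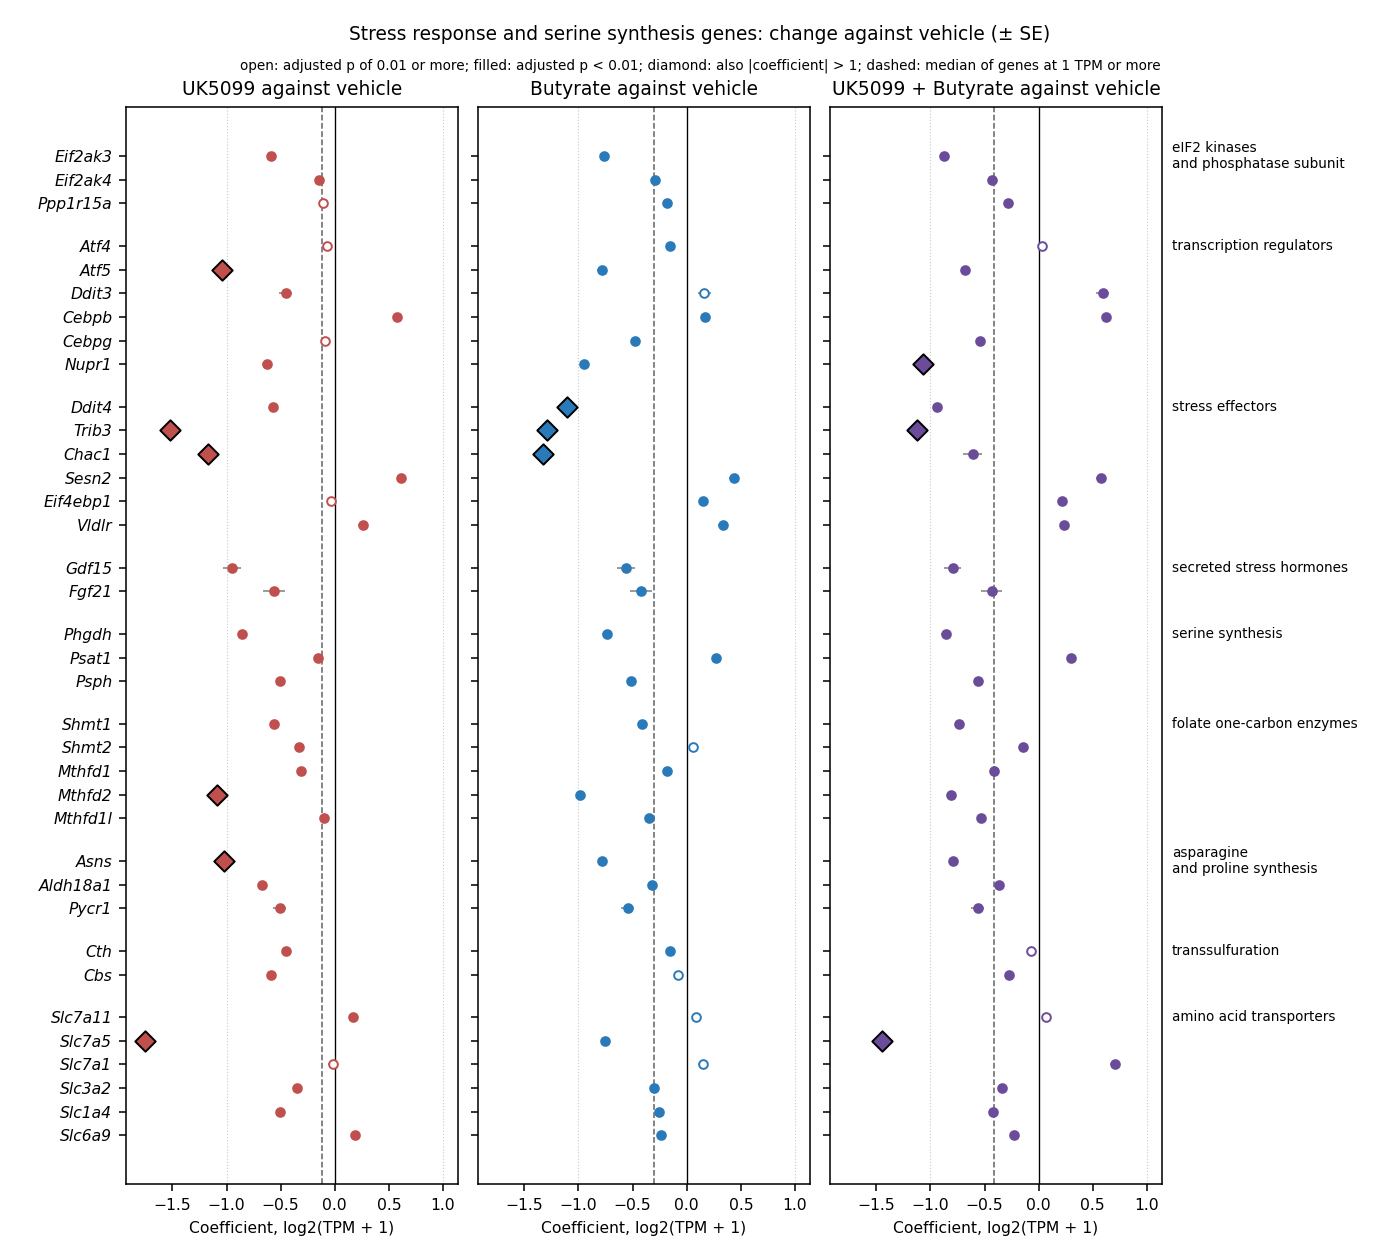
Coefficient of each of the 36 members, in log2(TPM + 1), against vehicle for UK5099, butyrate and the combination (points; bars are ± SE), grouped by role. Filled points have an adjusted p under 0.01 and diamonds are called; the 6 diamonds under UK5099 all lie below -1, and the dashed line of the typical gene at 1 TPM or more moves from -0.12 through -0.30 to -0.41.

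Promoter letters were examined because many of these genes are known ATF4 targets and most of the 36 were lower with UK5099. The element searched was TGATGNAA, the core of the site at which ATF4 pairs with C/EBP proteins, on both strands (TTNCATCA on the other), in RefSeq windows of GRCm38.p6 that run from 250 bases before to 50 after each start. Windows were matched by symbol for 33 of the 36 members, all but Slc7a5, Eif4ebp1 and Cth. The element was in 9 of those 33 members (27.3%) and in 4.51% of the 27025 genes that have a window, a description of letters and not of binding. Since many members are known ATF4 targets, a higher share than in all genes was likely beforehand and tells nothing of these samples. The matches of the 5 members whose samples are given below are shown, since they include Trib3, Chac1 and Asns, with the element in capitals. They lie at chr2:119351023-119351082, plus strand, for Chac1, at chr6:7693210-7693258, minus strand, for Asns, at chr7:45615596-45615655, minus strand, for Fgf21, at chr7:126625547-126625606, minus strand, for Nupr1, and at chr2:152344031-152344054, minus strand, for Trib3, and each is written along the gene's own strand. The first base of the element was at -193 from the start in Chac1, -23 in Asns, -139 in Fgf21, -110 in Nupr1 and 15 in Trib3, just after its start.
Chac1: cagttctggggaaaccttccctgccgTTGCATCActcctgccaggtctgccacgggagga
Nupr1: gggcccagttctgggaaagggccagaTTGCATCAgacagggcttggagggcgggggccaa
Fgf21: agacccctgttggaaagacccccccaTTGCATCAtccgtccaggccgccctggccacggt
Trib3: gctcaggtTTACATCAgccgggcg
Asns: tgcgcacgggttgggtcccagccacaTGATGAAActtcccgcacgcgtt
Chac1, Nupr1 and Fgf21 shared the form TTGCATCA, Trib3 had TTACATCA, and Asns had the element in the other orientation as TGATGAAA. The other 4 members with a match were Vldlr, Pycr1, Slc7a11 and Slc1a4. With UK5099 Vldlr and Slc7a11 had coefficients of 0.26 and 0.17, whereas Pycr1 and Slc1a4 were both at -0.51. Mthfd2 and Atf5, which were called with UK5099, had windows without a match.

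The kinases and the phosphatase subunit that set eIF2 phosphorylation had coefficients from -0.88 to -0.11. Eif2ak3, which encodes PERK, the kinase of the endoplasmic reticulum, fell from 4.54 ± 0.213 TPM (SD, n = 3) in vehicle to 2.68, 2.26 and 2.02 with UK5099, butyrate and the combination, with coefficients of -0.59, -0.77 and -0.88 and adjusted p of 2.37e-07, 1.48e-08 and 3.29e-09. Eif2ak4, which encodes GCN2, the sensor of uncharged tRNA, had smaller coefficients of -0.15, -0.30 and -0.44. These were close to the medians of genes at 1 TPM or more, -0.12, -0.30 and -0.41. After the median of ratios they were -0.054, -0.11 and -0.18, the first of which did not pass the test. Ppp1r15a encodes GADD34, which directs a phosphatase to eIF2 and ends the response. Its mean was 151 TPM in vehicle and 140.02, 133 and 124 in the treated groups, and the sign of its coefficients turned positive after the median of ratios (0.038, 0.13 and 0.17).

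Among the transcription regulators, Atf4 itself moved little. Atf4 (chr15:80139385-80141742, plus strand, as the table gives it) was at 798, 786 and 775 TPM under vehicle, 730.3, 762 and 756 under UK5099, 705, 693 and 715 under butyrate and 798, 806 and 800.2 under both compounds. Its UK5099 and butyrate samples lay below vehicle, and its combination samples lay at or just above the highest vehicle sample. The coefficients were -0.069 ± 0.019 (SE; limma adjusted p = 0.0167) under UK5099, -0.16 ± 0.019 under butyrate and 0.028 ± 0.019 under both compounds, and all 3 were positive after the median of ratios, at 0.08, 0.16 and 0.49. Per kilobase of exon, at a fixed total of fragments, Atf4 had the highest mean level of the 36 members in vehicle, 152, followed by Nupr1 at 142 and Ddit4 at 116, while Fgf21 was lowest at 0.192.

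Atf5, an ATF4 target that encodes a related stress factor also translated when eIF2 is phosphorylated, was lower in every treated group. It was at 59.7, 60.1 and 55.8 TPM under vehicle, 27.5, 27.6 and 28.7 under UK5099, 32.4, 33.5 and 34.6 under butyrate and 34.8, 36.04 and 37.5 under both compounds. All 9 treated samples lay below the lowest vehicle sample, and the UK5099 samples were the lowest of all. The coefficient was -1.04 ± 0.038 with UK5099 (SE; limma adjusted p = 4.84e-08), -0.79 with butyrate and -0.68 with the combination. Nupr1, a small stress-induced chromatin protein, was at 244, 244 and 237 TPM under vehicle, 157, 154 and 157 under UK5099, 127, 123 and 125 under butyrate and 124, 111 and 109 under both compounds. No treated sample reached the vehicle range, and butyrate and the combination were lower than UK5099. Such separation was common, with 64.6% and 69.7% of genes at 1 TPM or more wholly below vehicle with butyrate and the combination. Its coefficients were -0.63, -0.95 and -1.07 ± 0.043, the last with an adjusted p of 1.37e-08.

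Ddit3 encodes CHOP, which promotes cell death when stress persists, and it moved in opposite directions in different groups. It was at 11.99, 10.7 and 11.1 TPM under vehicle, 7.76, 7.89 and 8.22 under UK5099, 12.2, 12.05 and 14.1 under butyrate and 16.7, 18.5 and 17.3 under both compounds. UK5099 samples lay below and combination samples above all vehicle samples, and each butyrate sample was above every vehicle sample by a small margin. The coefficient was -0.45 ± 0.063 with UK5099 (SE; limma adjusted p = 0.000273), 0.16 ± 0.063 with butyrate (0.0536) and 0.59 ± 0.063 with the combination (1.91e-05). Butyrate added to UK5099 raised Ddit3 by 1.04, the only member called in that comparison, where 1.97% of all genes were called. After the median of ratios the coefficient of the combination was 1.02, past the threshold.

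Cebpb, a C/EBP protein that partners ATF4, was higher in every treated group. It was at 97.9, 101 and 105 TPM under vehicle, 154, 149.8 and 149.9 under UK5099, 111, 115 and 117 under butyrate and 162, 155 and 154 under both compounds. None of the treated samples overlapped vehicle, and UK5099 and the combination stood above butyrate. The coefficients were 0.57 ± 0.03 under UK5099, 0.17 ± 0.03 under butyrate and 0.63 ± 0.03 under both compounds (SE; limma adjusted p = 4.7e-07, 0.000832 and 4.95e-08). Cebpg, another C/EBP partner of ATF4, went the other way, from a mean of 44.8 TPM in vehicle to 31.9 with butyrate and 30.4 with the combination, and its UK5099 coefficient of -0.091 did not pass the test (adjusted p = 0.0109).

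The stress effectors split into genes that fell and genes that rose. Trib3, a pseudokinase that restrains ATF4 and the kinase AKT, was at 10.3, 10.9 and 10.1 TPM under vehicle, 3.102, 2.84 and 2.98 under UK5099, 3.99, 3.16 and 3.94 under butyrate and 4.403, 4.37 and 4.002 under both compounds. Every treated sample was far below every vehicle sample, and UK5099 samples were the lowest. The coefficient was -1.53 ± 0.068 with UK5099 (SE; limma adjusted p = 1.54e-07), -1.29 with butyrate and -1.12 with the combination, so Trib3 was the only member called in all 3 on the deposited TPM. Its coefficient of the combination was -0.72 after the median of ratios and -0.91 by voom, neither past the limit of -1. Chac1, an enzyme that breaks down glutathione, was at 8.09, 7.02 and 7.22 TPM under vehicle, 2.57, 2.65 and 3.07 under UK5099, 2.65, 2.32 and 2.14 under butyrate and 3.998, 5.08 and 4.54 under both compounds. Its treated samples did not overlap vehicle, and its combination samples were above those of either compound alone. The coefficient was -1.17 ± 0.088 under UK5099, -1.33 ± 0.088 under butyrate and -0.61 ± 0.088 under both compounds (limma adjusted p = 4.65e-06, 7.55e-07 and 0.000176). The coefficient of the combination was -0.21 after the median of ratios and did not pass the test there. Chac1 rested on 142 to 190 fragments per sample in vehicle and 60 to 80 with UK5099.

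Ddit4 encodes REDD1, which dampens mTORC1 signalling, and it was lower in all treated groups. It was at 483, 493 and 476 TPM under vehicle, 332, 328 and 319 under UK5099, 226, 216 and 232 under butyrate and 244, 254 and 260.4 under both compounds. Butyrate samples were the lowest and UK5099 samples were closest to vehicle, with no overlap between these groups. The coefficient was -1.10 ± 0.032 with butyrate (SE; limma adjusted p = 4e-09), -0.57 with UK5099 and -0.94 with the combination. Sesn2, a leucine sensor that also restrains mTORC1, was at 7.68, 7.32 and 7.64 TPM under vehicle, 11.7, 11.5 and 13.1 under UK5099, 10.3, 10.6 and 10.8 under butyrate and 12.005, 11.6 and 11.7 under both compounds. All 9 treated samples lay above vehicle. Its coefficients were 0.62 ± 0.044, 0.44 and 0.58, with adjusted p of 3.19e-06, 1.5e-05 and 1.43e-06. Eif4ebp1, a repressor of cap-dependent translation, had means of 21.98 TPM under vehicle, 21.4 under UK5099, 24.4 under butyrate and 25.6 under both. Vldlr, a lipoprotein receptor, rose in each, from 7.603 TPM to 9.31, 9.81 and 9.13.

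**Figure D2:**
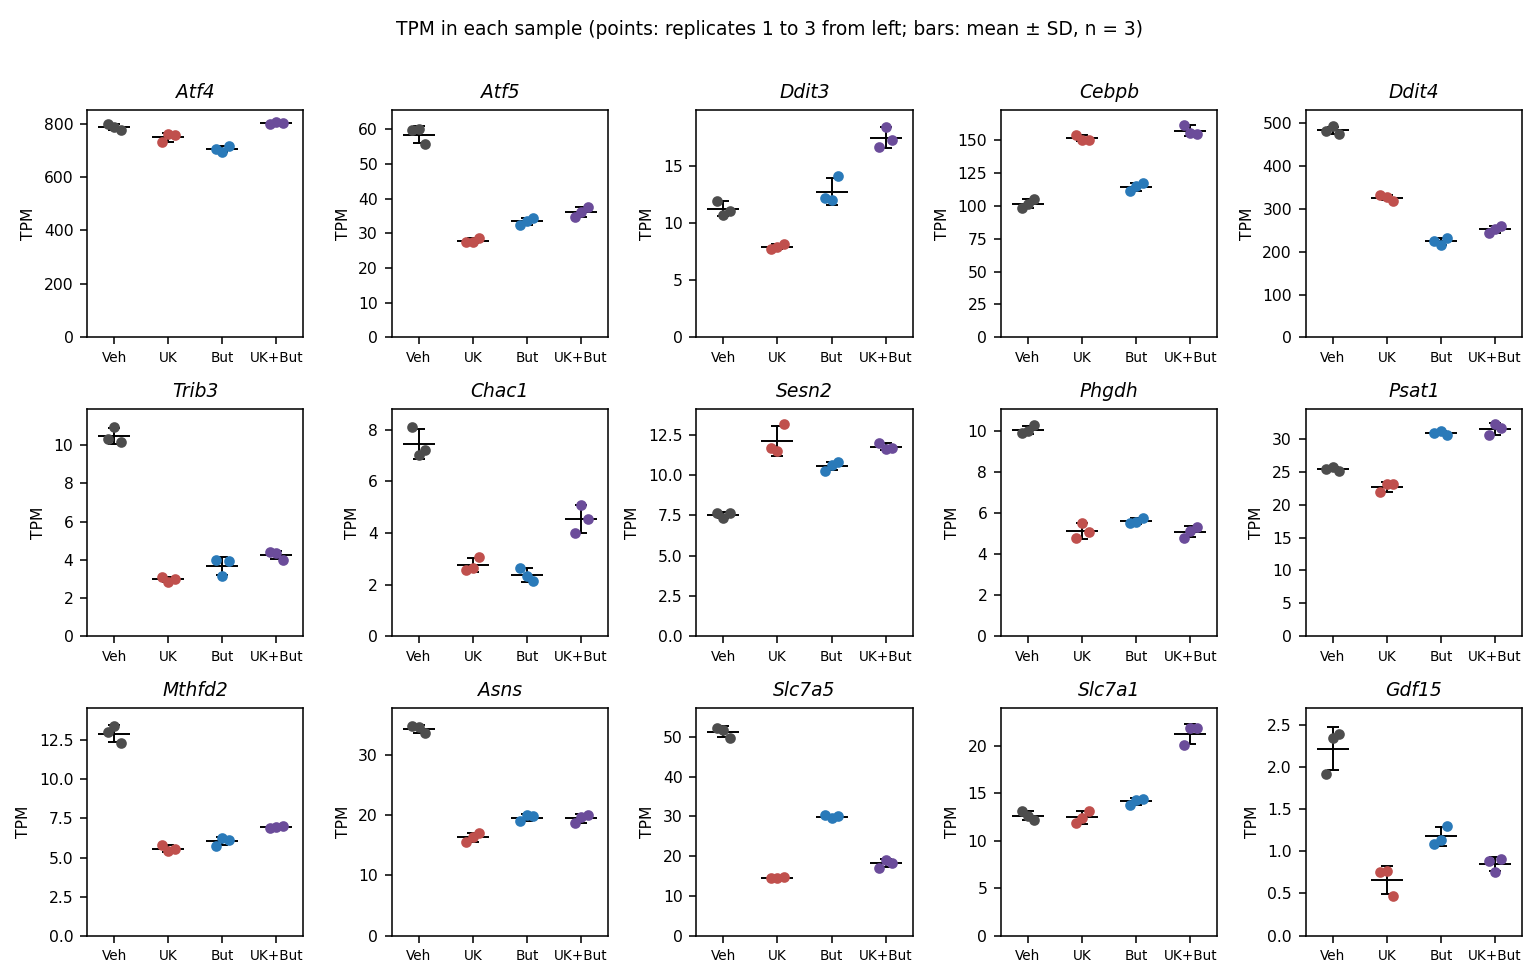
TPM in each of the 12 samples for 15 of the members (points are samples, bars are mean ± SD, n = 3; every axis starts at 0). Trib3, Chac1, Asns, Mthfd2, Atf5 and Slc7a5 drop from vehicle in every treated group, Cebpb and Sesn2 rise, and Ddit3 and Slc7a1 are highest with the combination.

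The 2 secreted stress hormones were at low levels. Gdf15, which acts on the hindbrain to curb appetite, was at 1.92, 2.34 and 2.39 TPM under vehicle, 0.749, 0.767 and 0.473 under UK5099, 1.09, 1.14 and 1.31 under butyrate and 0.888, 0.756 and 0.904 under both compounds. It rested on 39 to 61 fragments per sample in vehicle and 12 to 18 with UK5099, and no treated sample reached the vehicle range. The coefficient with UK5099 was -0.95 ± 0.082 (SE; limma adjusted p = 1.17e-05), and that on recovered fragments, without the added 1 TPM, was -1.68. Fgf21, a starvation and mitochondrial stress hormone, had 6 to 7 fragments per sample under vehicle, 0 to 2 under UK5099, 1 to 5 under butyrate and 1 to 5 under both. Fgf21 was thus at 0.658, 0.583 and 0.523 TPM under vehicle, 0.0841, 0 and 0.151 under UK5099, 0.0668, 0.362 and 0.142 under butyrate and 0.283, 0.188 and 0.0595 under both compounds. These counts are too few to give a fold.

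The 3 enzymes of serine synthesis did not move as 1 unit. Phgdh encodes the first enzyme, which oxidises 3-phosphoglycerate, and was at 9.92, 10.04 and 10.3 TPM under vehicle, 4.81, 5.54 and 5.09 under UK5099, 5.55, 5.58 and 5.79 under butyrate and 4.82, 5.15 and 5.35 under both compounds. All treated samples were well below vehicle and the treated groups were close to one another. The coefficients were -0.85 ± 0.045, -0.74 and -0.86 (SE; limma adjusted p = 4.59e-07, 3.95e-07 and 8.65e-08). Psat1 encodes the aminotransferase of the second step, and was at 25.4, 25.7 and 25.1 TPM under vehicle, 21.9, 23.1 and 23.1 under UK5099, 30.9, 31.2 and 30.6 under butyrate and 30.5, 32.3 and 31.6 under both compounds. UK5099 samples lay below vehicle, while butyrate and combination samples lay above it. Its coefficients were -0.16 ± 0.026, 0.27 ± 0.026 and 0.30 ± 0.026, and after the median of ratios that of UK5099 was -0.013 and did not pass the test. Psph encodes the phosphatase of the last step, and was at 5.74, 5.66 and 5.36 TPM under vehicle, 3.83, 3.55 and 3.57 under UK5099, 3.75, 3.68 and 3.42 under butyrate and 3.45, 3.59 and 3.36 under both compounds. No treated sample reached the vehicle range, and the treated groups overlapped one another. Its coefficients were -0.50, -0.51 and -0.56, and only 2 of its 12 values were whole numbers of fragments, so its level is uncertain. Whole numbers were counted only under 1000 fragments, where Phgdh had 1 value, also fractional, and Psat1 had 0. The 3 enzymes are thus not ranked by certainty.

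Mthfd2, a mitochondrial folate enzyme that is low in most adult tissues, fell furthest of the 5 folate enzymes. It was at 13.02, 13.4 and 12.4 TPM under vehicle, 5.79, 5.39 and 5.54 under UK5099, 5.74, 6.24 and 6.14 under butyrate and 6.89, 6.98 and 7.04 under both compounds. Every treated sample was below every vehicle sample, and the combination samples were above those of UK5099 and butyrate. The coefficient was -1.08 ± 0.036 with UK5099 (SE; limma adjusted p = 2.75e-08), -0.98 with butyrate and -0.81 with the combination. With UK5099 all 5 folate enzymes were lower at an adjusted p under 0.01, with coefficients from -1.08 to -0.10. At that limit 39.7% of genes at 1 TPM or more, with a median of -0.12, and 24.7% of all genes were lower. Shmt2, which turns serine into glycine and a one-carbon unit in mitochondria, had means of 165 TPM under vehicle, 131 under UK5099, 171 under butyrate and 149 under both, with coefficients of -0.33, 0.055 and -0.15. That of butyrate did not pass the test on the deposited TPM but was 0.37 and passed it after the median of ratios, where that of the combination turned to 0.32. Its cytosolic counterpart Shmt1 was lower in each group, at 7.301, 4.63, 5.24 and 3.98 TPM, although its 5 values under 1000 fragments were all fractional. Mthfd1 and Mthfd1l, the cytosolic and mitochondrial synthetases of formyl folate, had UK5099 coefficients of -0.31 and -0.095. After the median of ratios 4 of the 5 remained lower with UK5099, all but Mthfd1l, beside 13.7% of all genes.

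Asns, which makes asparagine and is a classic ATF4 target, was at 34.9, 34.6 and 33.6 TPM under vehicle, 15.6, 16.4 and 17.1 under UK5099, 18.9, 19.98 and 19.9 under butyrate and 18.6, 19.7 and 20.1 under both compounds. Its treated samples did not overlap vehicle, UK5099 samples were the lowest, and butyrate and the combination overlapped. The coefficient was -1.03 ± 0.038 with UK5099 (SE; limma adjusted p = 4.68e-08), -0.78 with butyrate and -0.79 with the combination. Aldh18a1 and Pycr1, which make proline, were lower in each group too on the deposited TPM, Aldh18a1 from 10.7 TPM in vehicle to 6.32 with UK5099, and Pycr1 from 7.28 to 4.82. After the median of ratios Aldh18a1 was at -0.034 with butyrate and 0.05 with the combination, neither past the test, and Pycr1 did not pass it with the combination (-0.17). The transsulfuration enzymes Cth and Cbs, which turn homocysteine into cysteine, were at 1.498 and 2.36 TPM in vehicle and fell to 0.829 and 1.24 with UK5099. With the combination Cth was at 1.38 TPM (adjusted p = 0.171) and Cbs at 1.77 TPM (adjusted p = 7.01e-05). These outcomes swapped after the median of ratios, where Cth was higher by 0.21 (limma adjusted p = 0.000944) and Cbs was at 0.033 (adjusted p = 0.484).

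Slc7a5 encodes LAT1, the leucine transporter, and its fall with UK5099 was the largest coefficient of the 36 members. It was at 52.3, 51.9 and 49.7 TPM under vehicle, 14.4, 14.4 and 14.6 under UK5099, 30.2, 29.5 and 30.2 under butyrate and 17.1, 19.1 and 18.3 under both compounds. No 2 groups overlapped, and UK5099 and the combination were the closest pair. The coefficient was -1.75 ± 0.035 with UK5099 (SE; limma adjusted p = 1.5e-09), -0.76 ± 0.035 with butyrate and -1.45 ± 0.035 with the combination, and that of UK5099 added to butyrate was -0.69. Slc3a2, the heavy chain that LAT1 needs at the membrane, had smaller coefficients of -0.35, -0.30 and -0.34. After the median of ratios these were -0.20, 0.0065 and 0.12, so the sign turned with butyrate and the combination.

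Slc7a1, the carrier of arginine and lysine, stayed near vehicle with UK5099 and rose with the combination. It was at 13.2, 12.6 and 12.2 TPM under vehicle, 11.9, 12.4 and 13.2 under UK5099, 13.7, 14.3 and 14.4 under butyrate and 20.1, 21.9 and 21.9 under both compounds. UK5099 samples overlapped vehicle, butyrate samples lay just above it, and every combination sample was above all others. The coefficient was -0.02 ± 0.045 with UK5099 (SE; limma adjusted p = 0.793), 0.15 ± 0.045 with butyrate (0.0181) and 0.71 ± 0.045 with the combination (3.73e-07), and after the median of ratios the last was 1.14. Slc7a11, the cystine carrier, rose from 2.62 to 3.08 TPM with UK5099. In the other groups it did not pass the test on the deposited TPM but was higher after the median of ratios, by 0.31 with butyrate and 0.40 with the combination. Slc6a9, a glycine carrier, rose from 7.83 to 9.02 TPM with UK5099 and fell to 6.51 with butyrate, a fall that was not seen after the median of ratios (0.043). With the combination its coefficient was -0.23 and turned to 0.18 on that scale. Slc1a4, a carrier of serine and alanine, was at 8.07 TPM in vehicle and 5.38, 6.604 and 5.77 in the treated groups, and after the median of ratios only UK5099 passed the test.

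For most members the coefficient of the combination lay above the sum of the separate ones. In the interaction term, which is the combination's coefficient minus the sum of the single ones, 23 members were positive and 2 negative at an adjusted p under 0.01, where 7.01% and 6.38% of all genes, and 10.2% and 10.9% of genes at 1 TPM or more, were. The median interaction was 0.42 for the members and 0.0035 for genes at 1 TPM or more, and the same split of 23 to 2 came out after the median of ratios, beside 6.82% and 6.68% of all genes. The 6 members called, Chac1, Trib3, Mthfd2, Atf5, Slc7a5 and Asns, were positive, while 0.515% of all genes were called positive and 0.499% negative. Among genes at 1 TPM or more these shares were 0.839% and 0.907%. The level that an additive effect would give on the log2(TPM + 1) scale can be set beside the observed one. For Chac1 it was 0.498 TPM, where the combination samples were at 3.998, 5.08 and 4.54 TPM. For Trib3 it was 0.625 TPM, against 4.403, 4.37 and 4.002. Asns at 9.11 and Slc7a5 at 8.18 TPM by addition were likewise below the observed means of 19.5 and 18.2. The additive levels of Chac1 and Trib3 lie under 1 TPM, where this scale understates changes. By voom on recovered fragments, without the added 1 TPM, their interactions were 2.33 and 2.00, and both were called. The part of the scale in the interaction was not tested otherwise. For Gdf15 and Fgf21 the additive levels were 0.123 and -0.197 TPM. No TPM can be negative, so addition on this scale gives no usable level for Fgf21. The 2 members past the test with a negative interaction were Sesn2 (-0.48) and Vldlr (-0.35), which both compounds raised.

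Against UK5099 alone, the combination had 15 members higher and 9 lower at an adjusted p under 0.01, where 7.62% and 35.3% of all genes were, and the median of the members was 0.070. Among genes at 1 TPM or more, 8.27% were higher and 59.9% lower, with a median of -0.29. After the median of ratios 25 members were higher and 4 lower, beside 17.1% and 18.7% of all genes. Against butyrate alone the combination had 7 members higher and 8 lower, beside 5.52% and 22% of all genes and 7.79% and 38% of genes at 1 TPM or more. No member was called by limma, where 0.908% of all genes were, although 26 had an unadjusted p under 0.05, as 42.6% of all genes had. Voom on recovered fragments called none there either, and called 1 with the median of ratios. Butyrate against UK5099 gave 14 members higher and 10 lower, beside 9.97% and 27.5% of all genes and 12.4% and 46.9% of genes at 1 TPM or more. Limma called none there, where 1.86% of all genes were called, with 30 members at an unadjusted p under 0.05, beside 50.6% of all genes, and 3 called by voom. These comparisons share samples with those against vehicle and are not separate evidence.

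**Figure D3:**
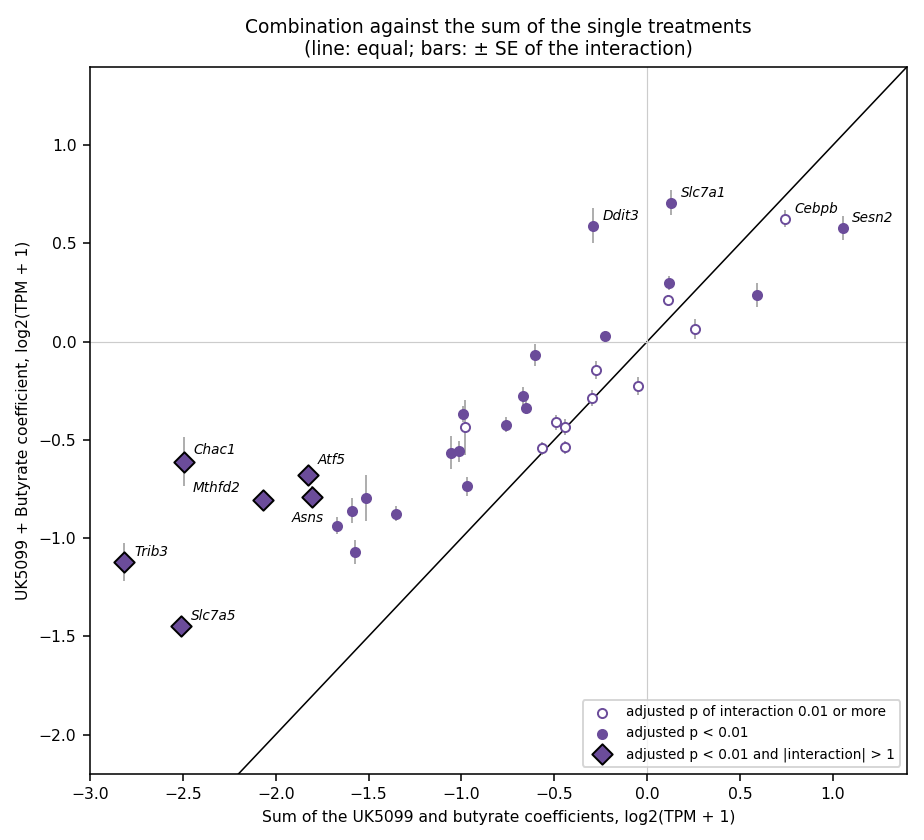
Combination coefficient against the sum of the UK5099 and butyrate coefficients for the 36 members, both in log2(TPM + 1) (bars are ± SE of the interaction; the line marks equality). The 6 called members, marked by diamonds, lie above the line by 1.018 to 1.88, and Sesn2 lies below it.

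Scaling set how many members counted as higher. The deposited TPM put the typical gene at 1 TPM or more at -0.12, -0.30 and -0.41 with UK5099, butyrate and the combination, and the median of ratios moved these to 0.0028, -0.034 and -0.032. In 30 of the 36 members the UK5099 coefficient kept its sign over 5 scalings, and 27 did so for butyrate and 29 for the combination. The members' median after the median of ratios was -0.36 under UK5099, -0.072 under butyrate and -0.063 under both compounds. Voom on recovered fragments gave medians of -0.50, -0.099 and -0.15.

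**Figure D4:**
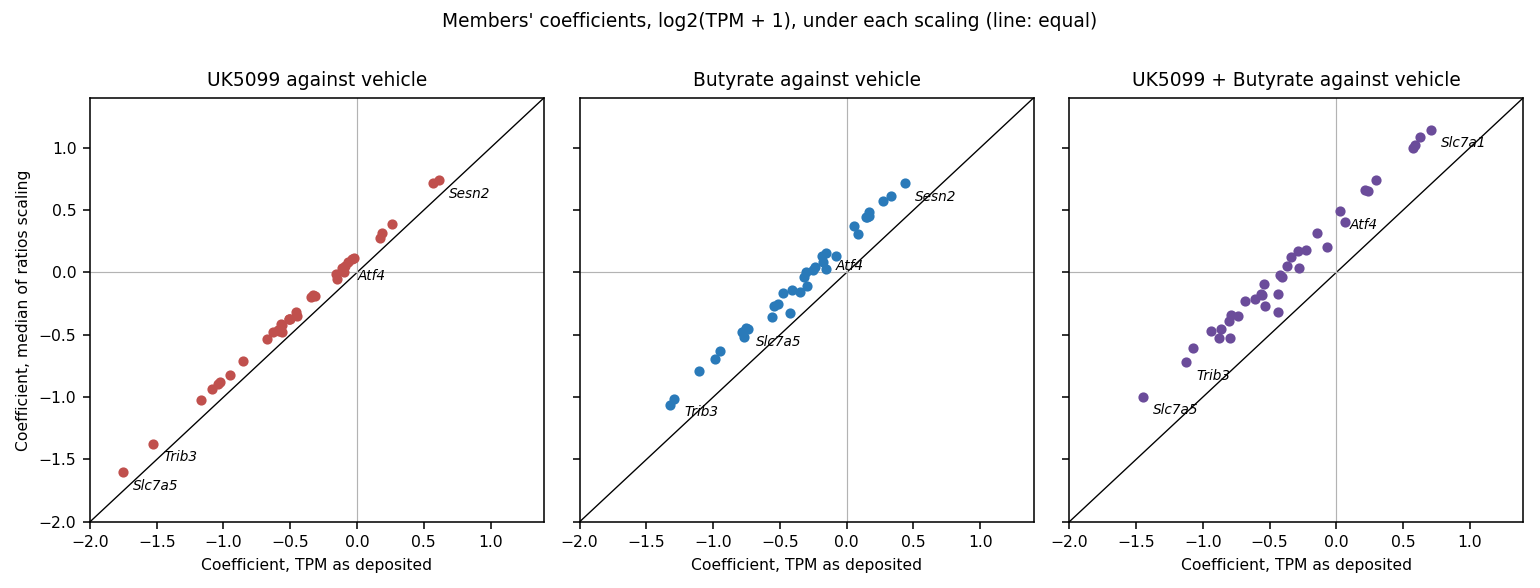
Coefficients of the 36 members on the deposited TPM (horizontal) and on the median of ratios scale (vertical), in log2(TPM + 1), for each treatment; the line marks equality. Points sit above the line in all panels, by the most with the combination, and Trib3 and Slc7a5 stay below 0 in each.

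Lists of related genes, fixed by name with earlier results of these data known, were counted in the same fit. A list of 13 held cytosolic aminoacyl-tRNA synthetases and the tRNA exporter Xpot, which ATF4 is known to activate. All 13 were lower than in vehicle in each of the 3 treated groups at an adjusted p under 0.01. Their medians were -0.55, -0.66 and -0.74, beside -0.12, -0.30 and -0.41 for genes at 1 TPM or more. Of such genes, 39.7%, 58.7% and 65.2% were lower at that limit with UK5099, butyrate and the combination. Of all genes, 24.7%, 35.9% and 40.8% were. After the median of ratios 11 of 13 were lower under UK5099, 11 under butyrate and 10 under both compounds. Of all genes, 13.7%, 20.3% and 22.5% were lower there. Aars, the alanine enzyme, was the only one called, at 42.8, 43.4 and 43.6 TPM in vehicle and 20.4, 20.9 and 20.7 with butyrate, which did not overlap. Of 15 other ATF4 targets, 10 were lower and 2 higher with UK5099, and Stc2, Atf3 and Pck2 were called. Among genes at 1 TPM or more, 39.7% were lower and 12.7% higher with UK5099, and 1.54% were called lower. Stc2, a secreted glycoprotein, was at 13.7, 13.5 and 13.2 TPM under vehicle, 4.396, 3.997 and 3.85 under UK5099, 11.01, 11.2 and 10.3 under butyrate and 8.52, 9.35 and 9.43 under both compounds, so the UK5099 samples were the lowest and the other treated samples lay between. Atf3, a stress-induced repressor, was at 25.97, 25.2 and 25.2 TPM under vehicle, 8.79, 9.58 and 9.31 under UK5099, 19.7, 20.1 and 20.7 under butyrate and 10.1, 10.7 and 11.2 under both compounds, with low values in both groups that received UK5099. Pck2, the mitochondrial enzyme that makes phosphoenolpyruvate, had means of 51.2 TPM in vehicle and 24.6, 31.5 and 21.3 in the treated groups. Atf3, Pck2, Herpud1 and Sqstm1 were called lower with the combination, the last 2 of them genes of protein disposal, with coefficients of -1.51 and -1.32. With the combination, 8.17% of genes at 1 TPM or more were called lower.

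Of 11 other amino acid transporters, 6 were lower and 2 higher with UK5099, beside 39.7% and 12.7% of genes at 1 TPM or more. Slc43a2, a carrier of large neutral amino acids like LAT1, was at 6.58, 6.03 and 6.03 TPM under vehicle, 2.16, 2.25 and 2.32 under UK5099, 2.61, 2.44 and 2.67 under butyrate and 0.756, 0.842 and 0.792 under both compounds. It was lowest with the combination, without overlap, at a coefficient of -2.005. Slc1a5, a glutamine carrier, fell from 50.6 TPM in vehicle to 23.6 with UK5099 and 28.3 with the combination. With butyrate it was at 43.5 TPM, and the sign of that coefficient (-0.21) turned after the median of ratios (0.095). Slc7a3, a cationic amino acid carrier, was at 1.64, 1.35 and 1.55 TPM under vehicle, 0.178, 0.249 and 0.1597 under UK5099, 0.205, 0.426 and 0.336 under butyrate and 0.2796, 0.325 and 0.2805 under both compounds, and no treated sample reached the vehicle range. Slc7a8, or LAT2, was called lower with butyrate (-1.10) and was higher with UK5099 (0.27).

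Of 14 further genes of the eIF2 pathway, 8 were lower with UK5099 with a median of -0.17. Gcn1, the activator of GCN2, was called lower with the combination, from 12.1 TPM in vehicle to 5.4005. For this and the following lists, 39.7% of genes at 1 TPM or more were lower and 12.7% higher with UK5099. Their median was -0.12, and 8.17% of them were called lower with the combination. Of 14 further folate and glycine cleavage genes, 8 were lower and 1 higher with UK5099, and Tyms, which makes thymidylate, was called lower with the combination at -1.08. The IRE1 and ATF6 arms of the unfolded protein response had all 7 genes lower with UK5099, with a median of -0.36. After the median of ratios 5 were lower, beside 13.7% of all genes. Of 6 genes of the methionine cycle and glutathione synthesis, 3 were higher and 2 lower with UK5099, with a median of 0.13. With butyrate 4 were higher, beside 12.2% of genes at 1 TPM or more. Of 4 genes of proline turnover, 3 were lower with UK5099.

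**Figure D5:**
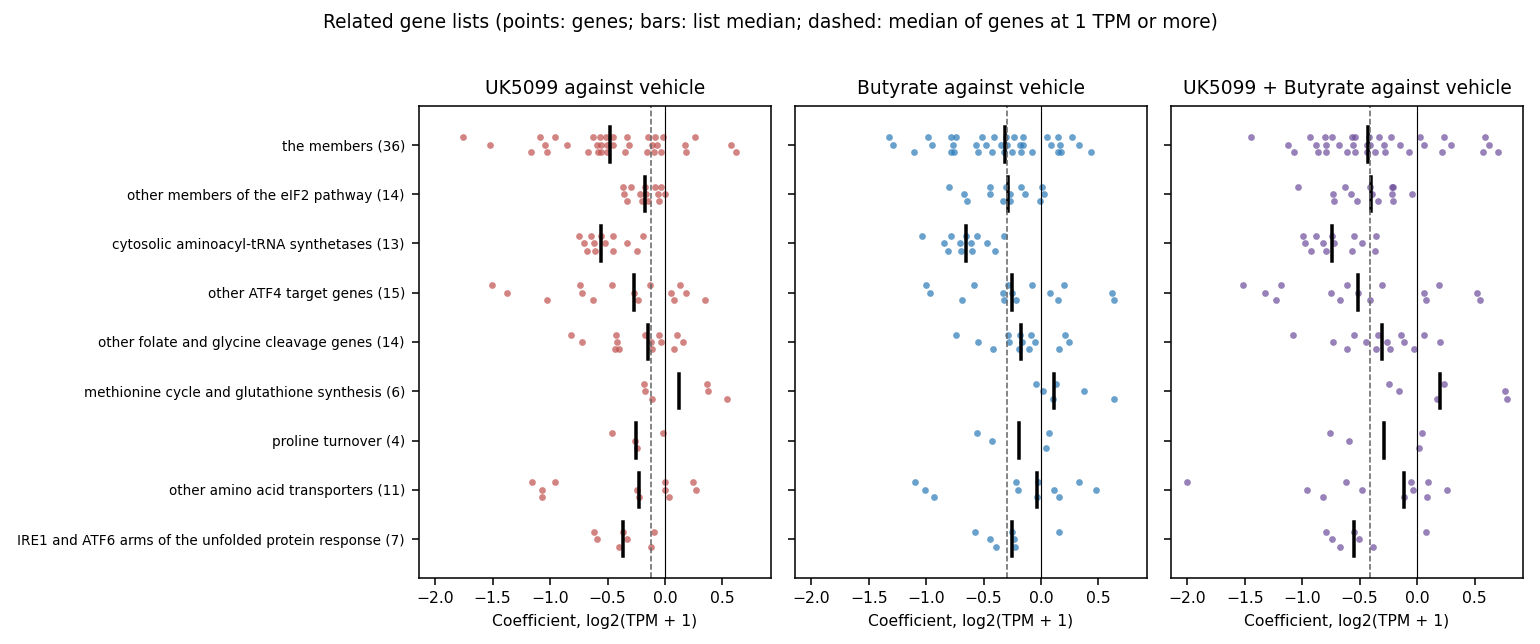
Coefficients against vehicle, in log2(TPM + 1), of the 36 members and of each related list (points are genes, bars are list medians, the dashed line is the median of genes at 1 TPM or more; list sizes are in parentheses). The tRNA synthetase list sits wholly below 0 in all panels, and the methionine and glutathione list has a median above 0.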

How the data were processed

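RNA was sequenced from 12 organoid samples in 4 groups of 3, taken from the sample labels. Per the labels, ribosomal RNA was removed with RNase H, mRNA was enriched, strand was marked with dUTP, and read pairs were sequenced. The authors deposited TPM per gene. The submitters' processing notes name STAR 2.7.9a, Partek and GRCm39, whereas the study's methods name fastp, STAR, RSEM and GRCm38. The deposited coordinates are not those of GRCm38. They start Chac1 at chr2:119181710 and end Fgf21 at chr7:45264914, far from the GRCm38.p6 promoter matches at chr2:119351023-119351082 and chr7:45615596-45615655. Coordinates of genes stand as deposited and are on another build than the promoter windows. The deposited TPM divides by genomic span (median 11598 bp); fragments recovered from it were whole in 50.5% to 60.2% of values, within 0.02 of a fragment, and gave the depth. The fit used limma 3.58.1 in R 4.3.3 on log2(TPM + 1), with terms for UK5099, butyrate and their interaction, on all genes and samples, with Benjamini-Hochberg adjustment, after a check on simulated data. The pseudocount of 1 was chosen here. Exonic lengths came from GENCODE M21. All replicate pairs varied beyond sampling noise and were kept apart.

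Members and lists were chosen with earlier results of these data known. Per-sample values are given for members called against vehicle or in the interaction, by limma or by voom on recovered fragments, and for Atf4, Ddit3, Asns, Phgdh, Psat1 and Psph. Genes of the other lists are named where called against vehicle. The marker lists held 26 genes, of which 3 were not analysed here. Alternatives were other pseudocounts, scalings, filters, priors, thresholds and voom, a replicate block, and each sample left out.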

Additional observations from a re-analysis of the deposited data

Results flagged for a closer look

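Effects of UK5099 differed between organoids without and with butyrate, by the interaction term of limma, in 6 members of the set and in 2 genes of the related lists. The interaction on log2(TPM + 1) was 1.88 for Chac1, 1.69 for Trib3, 1.26 for Mthfd2, 1.15 for Atf5, 1.06 for Slc7a5 and 1.018 for Asns. It was 1.28 for Stc2 and 1.04 for Slc7a3. In Stc2 the UK5099 coefficient against vehicle was -1.51, with means of 13.4 TPM in vehicle and 4.08 TPM with UK5099, whereas UK5099 added to butyrate gave means of 10.8 and 9.10 TPM. In Chac1 UK5099 lowered the mean from 7.44 to 2.76 TPM without butyrate, and the means with butyrate were 2.37 TPM alone and 4.54 TPM with UK5099. Slc7a3 rested on low values, with vehicle samples at 1.35 to 1.64 TPM.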

How the results depend on the processing

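Counts of called members moved with some settings. With UK5099 the 6 became 3 after the median of ratios and 3 after quantile normalisation. With butyrate the 3 became 5 at a pseudocount of 0.01, 2 after the median of ratios and 1 after quantile normalisation. With the combination the 3, all lower, became 5 at a pseudocount of 0.1 and of 0.01. Voom with either scaling gave 5 members, of which 4 were higher and 1 lower. Calls among all 24674 genes rose too, from 1585 to 3292 and 4118 at these pseudocounts. Voom called 3441 of all genes, and 3467 with the median of ratios. UK5099 added to butyrate gave 1 by voom with the median of ratios. Butyrate added to UK5099 gave 2 after the median of ratios or quantile normalisation and 4 by voom with either scaling, against 1. Butyrate against UK5099 gave 1 at a pseudocount of 0.1 or 0.01 and after the median of ratios or quantile normalisation, 3 by voom and 2 by voom with the median of ratios. With no limit on the coefficient the counts were 31, 31 and 33 against vehicle, 15 and 24 for the additions, 24 for butyrate against UK5099 and 25 for the interaction. Leaving out each sample in turn gave 5 to 7 members with UK5099, 3 to 4 with butyrate, 3 with the combination, 0 to 1 for butyrate against UK5099 and 5 to 6 for the interaction. The 1 arose without UK5099 replicate 3 and without Butyrate replicate 2. Asns lost its UK5099 call without UK5099 replicate 1, at -0.995.

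Signs turned for Atf4, which with UK5099 was 0.080 after the median of ratios, 0.016 after quantile normalisation, 0.011 by voom and 0.081 by voom with the median of ratios, and with butyrate was 0.157 after the median of ratios and 0.158 by voom with either scaling. Slc7a1 with UK5099 was 0.117, 0.114, 0.062 and 0.131 under the 4, 0.012 without UK5099 replicate 1 (also with both deviating libraries left out, an alternative chosen after seeing the data) and, leaving out each sample in turn, between -0.0567 and 0.0119. With butyrate, Slc1a5 was 0.095, 0.159, 0.098 and 0.098 under the 4, Stc2 was 0.0041, 0.062, 0.0049 and 0.0052, and Atf3 was 0.064 after quantile normalisation. The cause was not tested. The filter at 1 TPM and the trended prior changed no call of a named gene.

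Same-numbered samples of different groups did not deviate together, with correlations from -0.107 to 0.029 over 18 pairs, and 1 of 12 samples correlated best with its own number. Such correlations cannot tell whether same-numbered samples share an animal, culture or batch. The main fit treated them as unpaired. With the replicate block the counts of called members were 6, 3, 3 and 6 for UK5099, butyrate, the combination and the interaction, and no named call changed. Depth limits Fgf21, at 0 to 7 fragments per sample.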
